A study of Canis lupus familiaris with 12 samples.

Results

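SMPDL3A, FOLH1B, MLIP, ARPP21, EPCAM, KRT18 and CYBB are 7 genes whose mRNA in canine mast cell tumour cells stood higher after 12 h of masitinib than before treatment and lower than before treatment at 72 h. They were chosen on these same arrays, by a 12 h mean above and a 72 h mean below the 0 h mean, so this order of means is how they were picked and not a finding. The array measures them with 22 probe sets, out of 29254 probe sets that carry 1 gene symbol and stand for 15115 genes. A probe set is a set of short probes. In some types, several of the 22 among them, the probes can also bind other transcripts. A further 2 probe sets that the annotation shares between KRT18 and other loci were not used.

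C2 is an established line of canine mast cell tumour cells with a tandem duplication in the juxtamembrane part of the receptor KIT, which leaves KIT constitutively active, and masitinib is a small molecule that inhibits KIT and related tyrosine kinases. RNA was taken from C2 cells after 12, 24 and 72 h with 100 nM masitinib (masitinib 12 h, 24 h and 72 h) and from C2 cells before the drug was added (untreated 0 h), and 3 Affymetrix Canine Genome 2.0 arrays were hybridised per time point, 12 in all. Every group is the same line, and no untreated cells of a later time are among these arrays, so the drug and the hours in culture cannot be told apart. The study's methods name 3 RNA replicates per time point and describe the cell pellet flask by flask, but neither they nor the labels tie an array to a flask or say whether the cultures were independent, and the p-values then measure the spread between these arrays, which may be technical.

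The genes have unlike roles. KRT18, a type I keratin that forms filaments with KRT8, and EPCAM, a surface molecule through which epithelial cells adhere, are known from simple epithelia. CYBB encodes NOX2, the catalytic subunit of the phagocyte NADPH oxidase, which needs the membrane partner CYBA and cytosolic factors to make superoxide. SMPDL3A is a secreted phosphodiesterase related to acid sphingomyelinase and, in human macrophages, a target of the liver X receptors. FOLH1B belongs to the family of folate hydrolase, a membrane carboxypeptidase that cuts glutamate from folates, and RefSeq lists the canine gene with the synonym PSMA and lists no canine gene under the symbol FOLH1. MLIP binds lamin A and is known from heart and skeletal muscle, and ARPP21 is a cyclic AMP-regulated phosphoprotein with an RNA-binding R3H domain, known from neurons of the striatum. In the canine assembly UU_Cfam_GSD_1.0 the 7 genes lie on 7 different chromosomes.

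The samples carried mast cell transcripts throughout. Of 12 mast cell markers 10 were measured, all 10 above the table's median level, with a median of 12.99 on the log2 scale against array medians of 5.89 to 5.95. Their summed level ranged from 116.2 to 117.2 at 0 h, 121.3 to 121.9 at 12 h, 124.3 to 125.2 at 24 h and 123.6 to 125.7 at 72 h. No 2 arrays held identical values. The poly-A controls, bacterial transcripts that are added to the RNA before labelling, read higher in masitinib-treated cells than in untreated 0 h cells by a mean of 0.29 at 12 h, 0.60 at 24 h and 0.47 at 72 h on the log2 scale. Their part in the changes was not tested, and where scaling to them turned a direction it is given with the gene. In bulk RNA, fewer cells that carry a transcript and less of it per cell cannot be told apart.

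Of the 7 genes, SMPDL3A had the largest swing. Its brightest probe set, the one with the highest mean over the 12 arrays, read 8.0, 7.92 and 7.88 at 0 h, 9.22, 8.99 and 9.21 at 12 h, 9.11, 8.88 and 9.04 at 24 h, and 5.24, 4.71 and 5.25 at 72 h on the log2 scale. The 12 h and 24 h arrays thus overlapped at a high level, and the 72 h arrays lay far below every other array. This was 2.30-fold higher at 12 h, 2.11-fold higher at 24 h and 7.30-fold lower at 72 h, each against 0 h. Between 24 h and 72 h its level fell by 3.95 on the log2 scale, the largest fall among the 29254 named probe sets over that interval. The 72 h arrays took part in the choice of the gene, so this rank is a description. The second SMPDL3A probe set followed the same course, with changes against 0 h of 1.02, 0.89 and -1.97 at 12, 24 and 72 h.

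FOLH1B kept less of its early rise. The brightest of its 4 probe sets read 8.92, 8.85 and 8.73 at 0 h, 9.65, 9.65 and 9.63 at 12 h, 9.26, 9.13 and 9.29 at 24 h, and 7.11, 6.97 and 7.00 at 72 h. No 2 time points overlapped, and the 24 h arrays lay between those of 0 h and 12 h. The fold differences from 0 h were 1.74-fold higher at 12 h, 1.31-fold higher at 24 h and 3.51-fold lower at 72 h. The probe sets Cfa.10823.1.A1_s_at and CfaAffx.7404.1.S1_s_at moved with it (Pearson's r over the 12 arrays 0.996 and 0.993). The fourth, Cfa.13491.1.A1_x_at, read 7.03 to 7.19 at 72 h and 7.06 to 7.29 at 0 h, and these arrays overlapped.

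MLIP gave 2 pictures, depending on the probe set. The brightest read 6.31, 6.28 and 6.39 at 0 h, 7.72, 7.49 and 7.40 at 12 h, 7.21, 6.78 and 6.90 at 24 h, and 5.18, 5.36 and 5.15 at 72 h. The groups did not overlap at any time, and the second of this pair, Cfa.15188.2.A1_a_at, changed by 1.32, 0.62 and -1.38 at 12, 24 and 72 h against 0 h. The other 2 MLIP probe sets stayed near the low end of the scale, at 3.85 to 4.12 for CfaAffx.4338.1.S1_s_at and 2.68 to 3.23 for Cfa.19660.1.S1_s_at over all arrays, and their arrays overlapped in every comparison with 0 h.

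ARPP21 had the largest early rise of the brightest probe sets. It read 5.15, 5.05 and 5.21 at 0 h, 6.60, 6.58 and 6.67 at 12 h, 6.44, 6.26 and 6.25 at 24 h, and 4.42, 4.72 and 4.14 at 72 h, without overlap between time points. This was 2.80-fold higher at 12 h, 2.28-fold higher at 24 h and 1.63-fold lower at 72 h than at 0 h. The late fall below 0 h was not shared by every ARPP21 probe set. Cfa.4014.1.A1_at, which was 2.73-fold higher at 12 h, read 4.76, 4.60 and 4.92 at 72 h and 4.86, 4.48 and 5.03 at 0 h, so that it returned to its starting range. Cfa.733.1.S1_at, which is dim (3.86 to 4.28 over all arrays), also overlapped at these 2 times. CfaAffx.8064.1.S1_s_at, nearly as bright as the brightest, read 5.59, 5.56 and 5.49 at 0 h, 5.99, 5.91 and 6.09 at 12 h, 5.60, 5.58 and 5.57 at 24 h, and 4.94, 5.32 and 5.28 at 72 h. Its changes against 0 h were thus smaller, at 0.45, 0.03 and -0.37, and its 24 h arrays overlapped with those of 0 h.

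EPCAM lost its rise first. The brightest probe set read 8.77, 8.71 and 8.67 at 0 h, 9.56, 9.36 and 9.64 at 12 h, 8.65, 8.64 and 8.57 at 24 h, and 7.23, 7.11 and 7.18 at 72 h. By 24 h all 3 arrays lay just below those of 0 h. EPCAM was 1.75-fold higher at 12 h and 2.91-fold lower at 72 h than at 0 h. The other 2 EPCAM probe sets had the same order of means, and one of them, CfaAffx.4844.1.S1_at, was dim and varied widely at 0 h (3.72 to 4.50), overlapping with the 12 h arrays.

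KRT18, the other epithelial gene, read 7.03, 6.78 and 7.02 at 0 h, 7.71, 7.66 and 7.80 at 12 h, 7.44, 7.20 and 7.42 at 24 h, and 5.72, 5.76 and 5.91 at 72 h. Unlike EPCAM it was still above its 0 h arrays at 24 h, and at 72 h it was 2.21-fold lower than at 0 h. Its second probe set changed by 0.76, 0.25 and -0.89 at 12, 24 and 72 h against 0 h. The 2 probe sets shared between KRT18 and other loci changed by 0.07 and 0.20 at 72 h.

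CYBB read 10.35, 10.03 and 9.86 at 0 h, 11.22, 11.20 and 11.16 at 12 h, 10.61, 10.69 and 10.68 at 24 h, and 9.57, 9.34 and 9.17 at 72 h. The treated arrays of 12 h and 24 h were tightly grouped while the 0 h arrays spread over 0.252 (SD, n = 3), yet no 2 time points overlapped. CYBB was 2.16-fold higher at 12 h, 1.49-fold higher at 24 h and 1.65-fold lower at 72 h, and its 3 probe sets gave like changes, from 1.04 to 1.11 at 12 h, 0.41 to 0.58 at 24 h and -0.78 to -0.69 at 72 h.

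**Figure D1:**
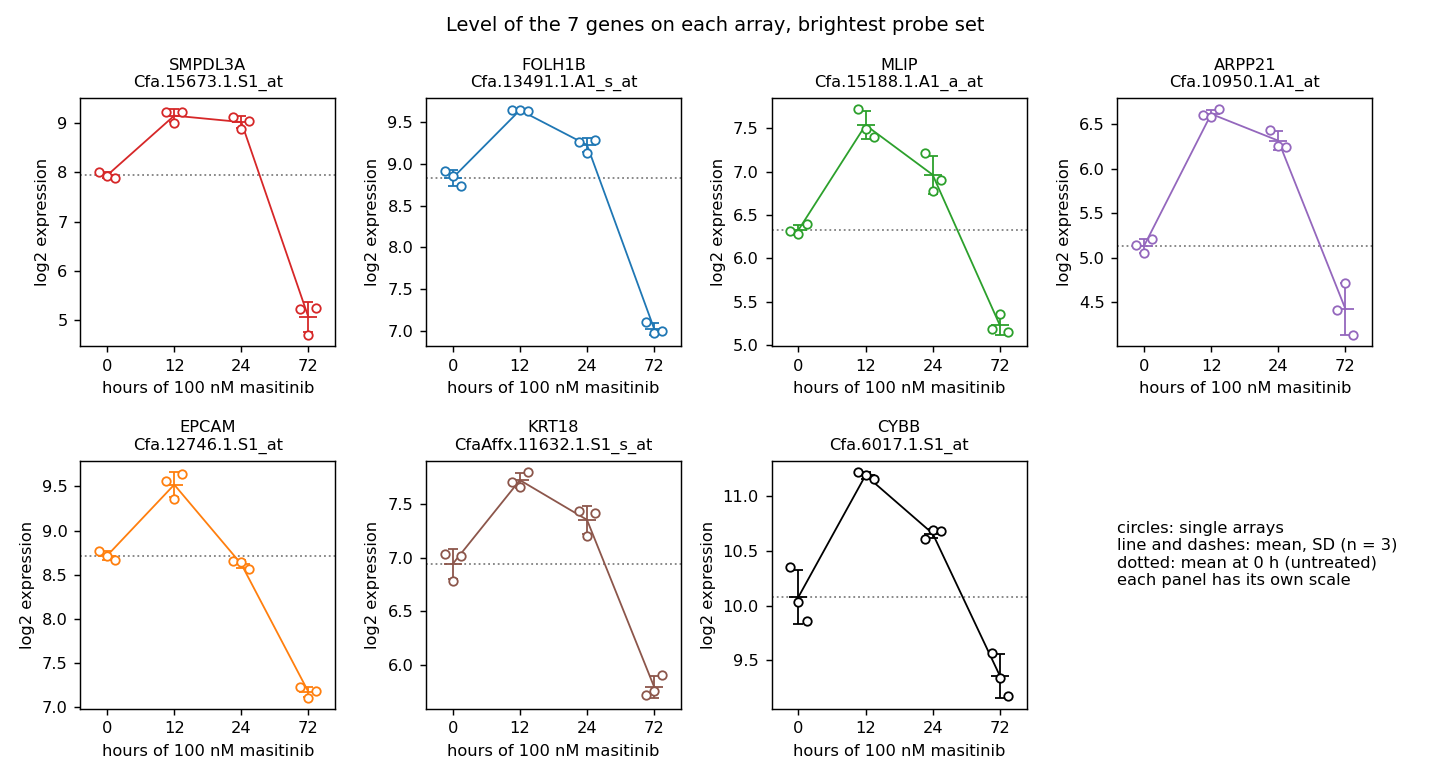
Log2 expression of the brightest probe set of each gene (y axis, a scale of its own per panel) at 0, 12, 24 and 72 h of 100 nM masitinib (x axis, evenly spaced). Circles are single arrays, the line joins the means, bars are SD (n = 3) and the dotted line is the 0 h mean. All 7 genes stood highest at 12 h and lowest at 72 h, and EPCAM was the one below its 0 h mean at 24 h.

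At 24 h the genes thus differed in how much of the 12 h rise was left. As a share of the 12 h change, SMPDL3A kept 89.6% and ARPP21 80.0%, MLIP, KRT18, CYBB and FOLH1B kept 52.7%, 52.4%, 51.9% and 48.4%, and EPCAM stood at -12.0%. The share varied with the probe set. ARPP21 CfaAffx.8064.1.S1_s_at, not called at 12 h, changed by 0.45 at 12 h and 0.03 at 24 h against 0 h. FOLH1B Cfa.13491.1.A1_x_at, not called either, changed by 0.34 and 0.41. The other probe sets called at 12 h kept 86.9% for SMPDL3A, 66.4% for ARPP21, 46.7% for MLIP, 32.8% for KRT18, 39.3% and 45.7% for CYBB, 33.7% and 37.2% for FOLH1B, and stood at -29.3% for EPCAM. These shares rest on the 0 h and 12 h arrays that chose the genes and are given as a description. From 12 h to 24 h the arrays of 6 of the 7 genes moved lower without overlap (16.6% of named probe sets did so), SMPDL3A being the exception. From 24 h to 72 h the arrays of all 7 moved lower without overlap (16.8% of named probe sets did so), and their means fell by 1.30 (CYBB) to 3.95 (SMPDL3A) on the log2 scale. As the 12 h and 72 h arrays chose the genes, these falls are a description too.

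The rule that chose the genes does not use the 24 h arrays, and these were compared with 0 h in a limma model over all probe sets. The genes were, however, chosen with earlier results of these data known, so the 24 h comparison may not be independent of the choice. A difference was called where its adjusted p was below 0.001 and its size above 1.5-fold. SMPDL3A, ARPP21 and MLIP rose at 24 h. SMPDL3A rose by 1.08 ± 0.129 (log2 change ± SE, limma adjusted p = 1.72e-05), ARPP21 by 1.19 ± 0.117 (adjusted p = 2.96e-06) and MLIP by 0.64 ± 0.111 (adjusted p = 4.4e-04). Of the 22 probe sets 5 were called higher and 0 lower, which is 22.7% of them, beside 16.9% of named probe sets called in either direction, 6.97% higher and 9.96% lower. The 5 were both of SMPDL3A, 2 of ARPP21 and 1 of MLIP. ARPP21 CfaAffx.8064.1.S1_s_at was not among them (0.03 ± 0.0914, limma adjusted p = 0.826). At an adjusted p under 0.05 with no minimum fold 13 of the 22 passed, beside 40.6% of named probe sets. With arrays scaled to the poly-A controls the 5 and 0 became 0 higher and 4 lower, where 48.3% of named probe sets were called lower and the lower calls made up 96.3% of all calls, against 58.8% without that scaling. The 0 h arrays on the other side of this comparison did take part in the choice. Without regard to the threshold, the 24 h arrays of 6 brightest probe sets lay above those of 0 h without overlap (as did those of 25.8% of named probe sets), and those of EPCAM lay below (as did 24.7%).

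The other genes did not pass at 24 h. FOLH1B reached the p threshold but not the fold (0.39 ± 0.0692, limma adjusted p = 5.16e-04), and KRT18 (0.41 ± 0.0904, adjusted p = 2.63e-03) and CYBB (0.58 ± 0.119, adjusted p = 1.58e-03) missed both. EPCAM differed from 0 h by -0.10 ± 0.0749 (limma adjusted p = 0.361). CYBB was called without replicate 1 of 0 h, its highest untreated array (0.71, limma adjusted p = 1.64e-04, among adjusted p of 1.64e-04 to 0.879 over its alternatives). The MLIP call was lost without any 1 of the 0 h arrays, and without replicate 1 or 3 of 24 h (0.51 to 0.67). It was also lost under the methods' analysis of variance, with the arrays of 0 h and 24 h alone and with cyclic loess scaling (0.58).

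These 24 h values are relative to the bulk of the transcripts on each array. With arrays scaled to the poly-A controls, the median of all probe sets at 24 h was -0.57 against 0 h, and FOLH1B (-0.21), KRT18 (-0.19) and CYBB (-0.03) turned below 0 although they lay above that median. EPCAM was then at -0.70, below it, and was called lower (limma adjusted p = 4.91e-05, among adjusted p of 4.91e-05 to 0.756 over its alternatives). SMPDL3A (0.48) and ARPP21 (0.58) stayed above 0 but lost their calls, and MLIP was at 0.03. At 12 h all 7 brightest probe sets stayed above 0 on this scale, at 0.49 to 1.19, and at 72 h all 7 stayed below, at -3.34 to -1.18.

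A second comparison set 24 h against the mean of 0, 12 and 72 h. With equal spread its error is uncorrelated with every difference among those 3 times. Its size, however, takes in the 12 h rise and the 72 h fall for which the genes were chosen. A gene near its 0 h level at 24 h comes out positive where the 72 h fall outweighs the 12 h rise. EPCAM changed by -0.10 and FOLH1B by 0.39 at 24 h against 0 h, neither called. The calls and counts of this comparison are thus not independent of the choice. A positive value says that 24 h lay above the average of the other times, not that it lay above 0 h. SMPDL3A stood 1.63 ± 0.106 above that average (limma adjusted p = 2.12e-07), ARPP21 0.93 ± 0.0959 (adjusted p = 1.2e-05), FOLH1B 0.72 ± 0.0565 (adjusted p = 1.05e-06) and MLIP 0.60 ± 0.0907 (adjusted p = 2.8e-04), and these 4 genes were called. KRT18 (0.53, adjusted p = 1.4e-04) fell short of the fold, and CYBB (0.45, adjusted p = 4.1e-03) and EPCAM (0.15, adjusted p = 0.105) of the p. Of the 22 probe sets 8 were called higher and 0 lower, beside 4.87% of named probe sets in either direction, 1.63% higher and 3.23% lower. On poly-A scaling 2 of the 22 were called, beside 12.8% of named probe sets in either direction, and FOLH1B (0.38), ARPP21 (0.58) and MLIP (0.25) lost their calls. KRT18 was called without replicate 2 of 24 h (0.61). MLIP lost its call without replicate 3 of 12 h or replicate 1 or 3 of 24 h (0.47 to 0.63), under the methods' analysis of variance and with cyclic loess scaling (0.57).

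**Figure D2:**
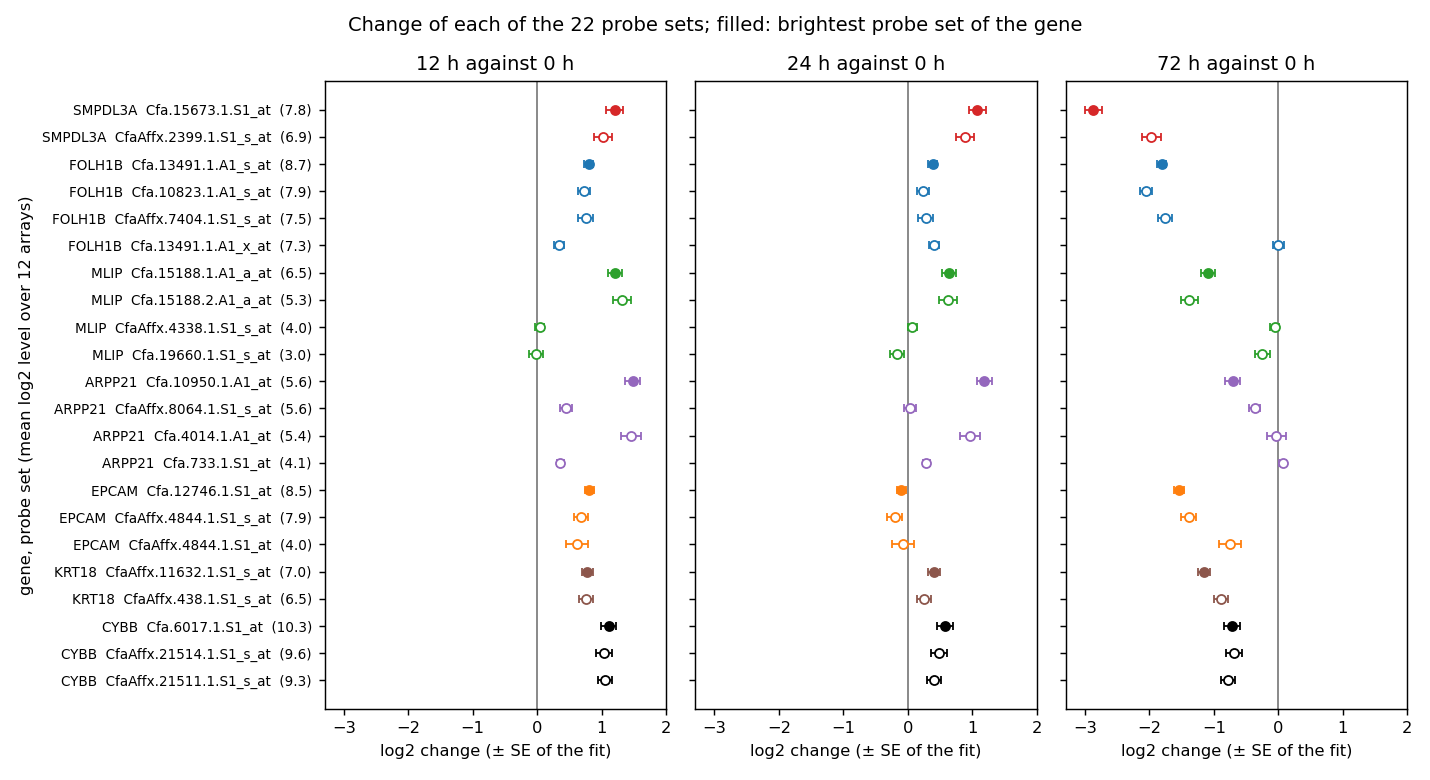
Log2 change (x axis) of each of the 22 probe sets (y axis, with its mean log2 level over the 12 arrays in brackets) at 12, 24 and 72 h against 0 h. Bars are the SE of the limma fit and filled points are the brightest probe set of a gene. Most probe sets lie right of 0 at 12 h and left of 0 at 72 h, while the 2 dim MLIP probe sets lie near 0 at all 3 times.

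Read one by one, 20 of the 22 probe sets had the order of means that chose the genes. Those nearest the limit on the inside were FOLH1B Cfa.13491.1.A1_x_at (0.00 at 72 h against 0 h, by less than a rounding step below), ARPP21 Cfa.4014.1.A1_at (-0.03 at 72 h) and MLIP CfaAffx.4338.1.S1_s_at (0.04 at 12 h and -0.06 at 72 h). The 2 outside were MLIP Cfa.19660.1.S1_s_at (-0.02 at 12 h) and ARPP21 Cfa.733.1.S1_at (0.07 at 72 h). In the comparisons that chose the genes, 16 of the 22 were called higher at 12 h, where 9.66% of named probe sets were called in either direction and 3.77% higher. At 72 h 15 were called lower, where 18.8% were called in either direction and 11.1% lower. These counts of calls follow in part from the choice and are a description, not a test. The arrays of all 7 brightest probe sets lay above 0 h at 12 h (as did 20.6% of named probe sets) and below it at 72 h (as did 26.4%).

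The same counts were made over the whole table. They use the comparisons that chose the genes, so they are given as a description. Of all named probe sets 3745 (12.8%) had the 12 h mean above and the 72 h mean below 0 h, and 4038 (13.8%) the reverse. Of the 1104 called higher at 12 h, 808 (73.2%) were also called higher at 72 h, 275 (24.9%) were not called at 72 h and 21 (1.9%) were called lower. Those 21 probe sets stood for 13 genes, and 15 of them were probe sets of the 7 genes. The other 6 belonged to SPP1, TFCP2L1, CXCR6, ARMC9, LOC476006 and LCK, named here after their values were seen. One probe set of CENPF, a kinetochore protein of dividing cells, lay further out than SMPDL3A (1.29 at 12 h and -3.18 at 72 h against 0 h), but its arrays scattered and it was not called at 12 h. The mirror image, called lower at 12 h and higher at 72 h, was met by 4 probe sets of 3 genes.

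**Figure D3:**
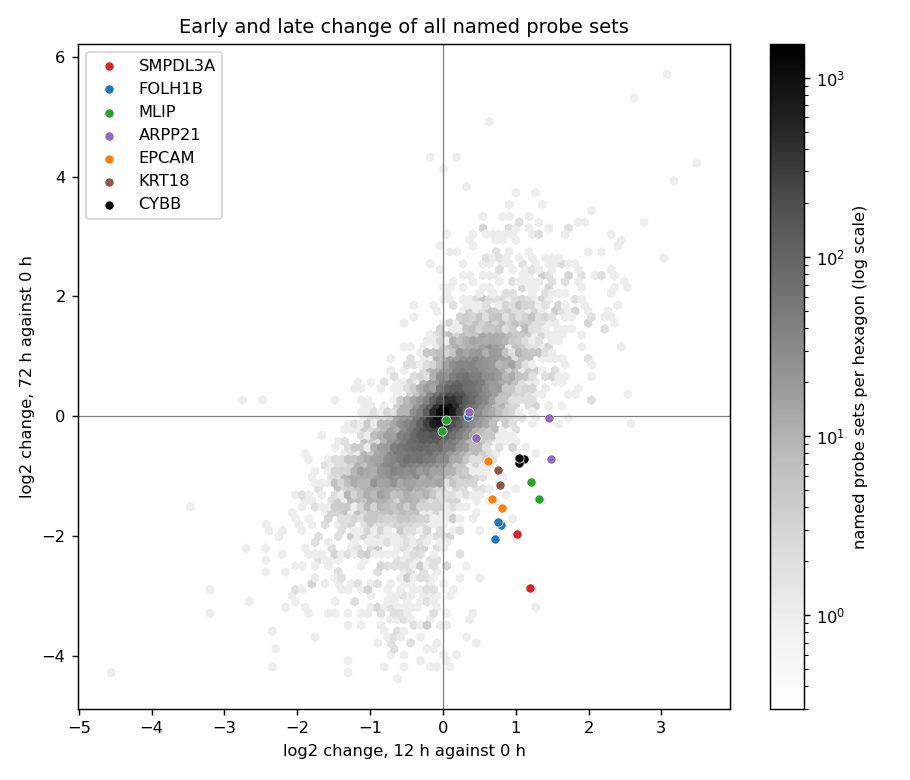
Log2 change at 72 h against 0 h (y axis) over that at 12 h against 0 h (x axis) for the 29254 named probe sets, as grey hexagons shaded by their number on a log scale, with the 22 probe sets of the 7 genes as coloured points. The mass of probe sets runs along the diagonal, and 15 of the coloured points lie in the sparse lower right.

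Over the 12 arrays the brightest probe sets of the 7 genes correlated with each other at Pearson's r of 0.847 to 0.989 (median 0.947 over 21 pairs), which the choice of the genes brings with it. Within time points, after each time point's mean was removed, r ran between -0.576 and 0.678 (median 0.14). The genes whose course over the 12 arrays was most like that of a member, with 3 taken per gene, moved less. Closest to SMPDL3A was SKAP2 (r = 0.9952), an adaptor of immune cell signalling, with changes of 0.41, 0.50 and -1.02 at 12, 24 and 72 h against 0 h, followed by SERP2 (r = 0.9918) and LEO1 (r = 0.9906). STAT4, a transcription factor of cytokine signalling, was closest to both FOLH1B (r = 0.9957) and KRT18 (r = 0.991), at 0.35, 0.20 and -0.70. Next to FOLH1B came FN1 and SERP2 (r = 0.9921 and 0.9911), and next to KRT18 came ZAR1L and LAMTOR1 (r = 0.9904 and 0.9869).

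EPCAM was most like NFYB (r = 0.9911), ANXA2 (r = 0.9899) and NAP1L1 (r = 0.9884). NFYB, a subunit of the CCAAT-binding factor, and ANXA2, a membrane-binding annexin, shared its early return, at -0.15 and -0.21 at 24 h against 0 h. ARPP21 was most like FXR1 (r = 0.9825), FRZB (r = 0.974) and SMARCD3 (r = 0.9732), of which FRZB, a secreted inhibitor of Wnt signalling, changed by 0.95, 0.89 and -0.38 at 12, 24 and 72 h. MLIP was most like LOC479911, VPS33A and the kinase LCK (r = 0.9837, 0.9805 and 0.9782). CYBB was most like VPS33A, LRRC49 and LCP1 (r = 0.9872, 0.9848 and 0.9726), and LCP1, an actin-bundling protein of blood cells, changed by 0.32, 0.11 and -0.21. These are descriptions over 12 arrays that share 4 time points.

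None of the related genes measured, in 7 lists, was called higher at 12 h and lower at 72 h, as 10 of 15115 genes (0.0662%) were by their brightest probe set. Among all 15115 genes, the share called in either direction was 10.6%, 18% and 19.8% at 12, 24 and 72 h, with a median change of 0.01, 0.03 and 0.02. On poly-A scaling all 27 called rises in these lists, counted over the 3 times, stayed above 0, while the 16 list medians above 0 turned below it. A call needs more than 1.5-fold, which exceeds the poly-A shift at 12 and 72 h and nearly equals it at 24 h. That the called rises stayed above 0 was thus largely fixed in advance and is no check of them. Few partners of CYBB passed the test. Of 16 genes of the NADPH oxidase family 14 were measured, with 0, 1 and 1 called at 12, 24 and 72 h and medians of 0.02, 0.03 and 0.01. CYBA, which holds CYBB in the membrane, changed by 0.09, -0.05 and 0.25 at 12, 24 and 72 h against 0 h and RAC2, the small GTPase of the complex, by 0.10, 0.10 and -0.01. HVCN1, the proton channel that balances the charge of the oxidase, rose by 0.74 at 24 h (limma adjusted p = 8.77e-04), and NCF4, a cytosolic subunit, fell by 0.70 at 72 h (adjusted p = 3.92e-06).

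Beside SMPDL3A, 15 of 16 sphingomyelin and ceramide enzymes were measured, with 2, 3 and 2 called higher at 12, 24 and 72 h, 0 lower at any time, and medians of 0.19, 0.17 and 0.28. SGMS2, a sphingomyelin synthase, rose at all 3 times, by 0.84, 1.33 and 1.02 (limma adjusted p at most 5.43e-05). PSAP, the precursor of saposins, rose by 0.67 and 0.88 at 12 and 24 h (adjusted p = 5.81e-05 and 2.64e-06), GALC, which degrades galactosylceramide, by 0.86 at 24 h (adjusted p = 1.94e-06) and SGMS1 by 0.75 at 72 h (adjusted p = 1.9e-07). SMPD1, acid sphingomyelinase itself, differed by 0.40, 0.46 and 0.58 at 12, 24 and 72 h (limma adjusted p at most 6.13e-05). It reached the p threshold but not the fold and was not called. SMPDL3B, the closest relative, read low, at a mean of 3.76 over the 12 arrays, and changed by -0.09, 0.05 and 0.02.

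Of 12 liver X receptor genes and targets, 2, 3 and 3 were called higher and 0 lower, with medians of 0.07, 0.19 and 0.25. NR1H3, which encodes liver X receptor alpha, rose by 1.20, 1.77 and 1.62 at 12, 24 and 72 h (limma adjusted p at most 2.94e-08), and MYLIP, a target that marks the LDL receptor for degradation, by 1.52, 2.03 and 2.27 (adjusted p at most 2.41e-09). NR1H2, liver X receptor beta, rose by 0.82 and 0.72 at 24 and 72 h (adjusted p = 4.07e-07 and 1.2e-06). At 72 h these genes stood higher, and SMPDL3A lower, than at 0 h. The targets ABCA1 (0.13, 0.27 and -0.03 at 12, 24 and 72 h) and ABCG1 (0.04, 0.06 and 0.03), which export cholesterol, were not called.

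Of 16 other genes of simple epithelium, set beside EPCAM and KRT18, 14 were measured, 0 were called at 12 and 24 h and 1 at 72 h, and the median changes were 0.09, 0.07 and 0.11. The genes were mostly dim, with a median level of 5.18 and 5 of the 14 above the table's median. KRT8, the filament partner of KRT18, read low, at a mean of 3.01 over the 12 arrays, and changed by 0.00, -0.14 and -0.29. The called gene was CDH1, which encodes E-cadherin and rose by 0.63 at 72 h (limma adjusted p = 1.6e-04). The summed level of the 14 ranged from 73.4 to 74.5 at 0 h, 75.2 to 75.9 at 12 h, 75.0 to 75.7 at 24 h and 74.4 to 77.0 at 72 h.

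Of 12 genes of the folate hydrolase family and of folate uptake 9 were measured, 1 higher and 1 lower at each time, with medians of -0.05, -0.16 and -0.11. NAALAD2, a carboxypeptidase of the same family as FOLH1B, rose by 0.93, 1.29 and 1.33 at 12, 24 and 72 h (limma adjusted p at most 5.14e-07), while TFRC, the transferrin receptor, fell by 0.82, 1.32 and 1.28 (adjusted p at most 1.61e-04). Among 10 of 11 genes of ARPP, R3H and protein kinase A proteins, 0 were called at 12 h, and 2 were higher and 1 lower at 24 and at 72 h, with medians of 0.10, 0.13 and 0.09. R3HDM2, an R3H domain relative of ARPP21, rose by 1.03 and 1.86 at 24 and 72 h and PRKACB, a catalytic subunit of protein kinase A, by 0.80 and 1.38 (adjusted p at most 9.85e-04), whereas ARPP19, an inhibitor of a mitotic phosphatase, fell by 0.70 and 0.71 (adjusted p at most 1.11e-06).

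In the nuclear lamina list, set beside MLIP, more genes fell than rose at 24 and 72 h. All 11 genes were measured, with 1 higher at each time and 0, 5 and 4 lower at 12, 24 and 72 h, and medians of 0.14, -0.54 and -0.57. LMNB1, lamin B1, fell by 2.41 and 2.07 at 24 and 72 h (limma adjusted p at most 2.05e-07), and TMPO, a lamina-associated protein, fell by 2.71 and 2.72 at the same times (adjusted p at most 1.52e-05). LMNA, which encodes lamin A, fell by 0.59 at 24 h and was at -0.38 at 72 h. SYNE2, a linker between nucleus and cytoskeleton, fell by 1.24 and 0.66 at 24 and 72 h (adjusted p at most 4.64e-04), while its relative SYNE1 rose by 0.92, 0.92 and 1.06 at 12, 24 and 72 h (adjusted p at most 5.38e-07).

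**Figure D4:**
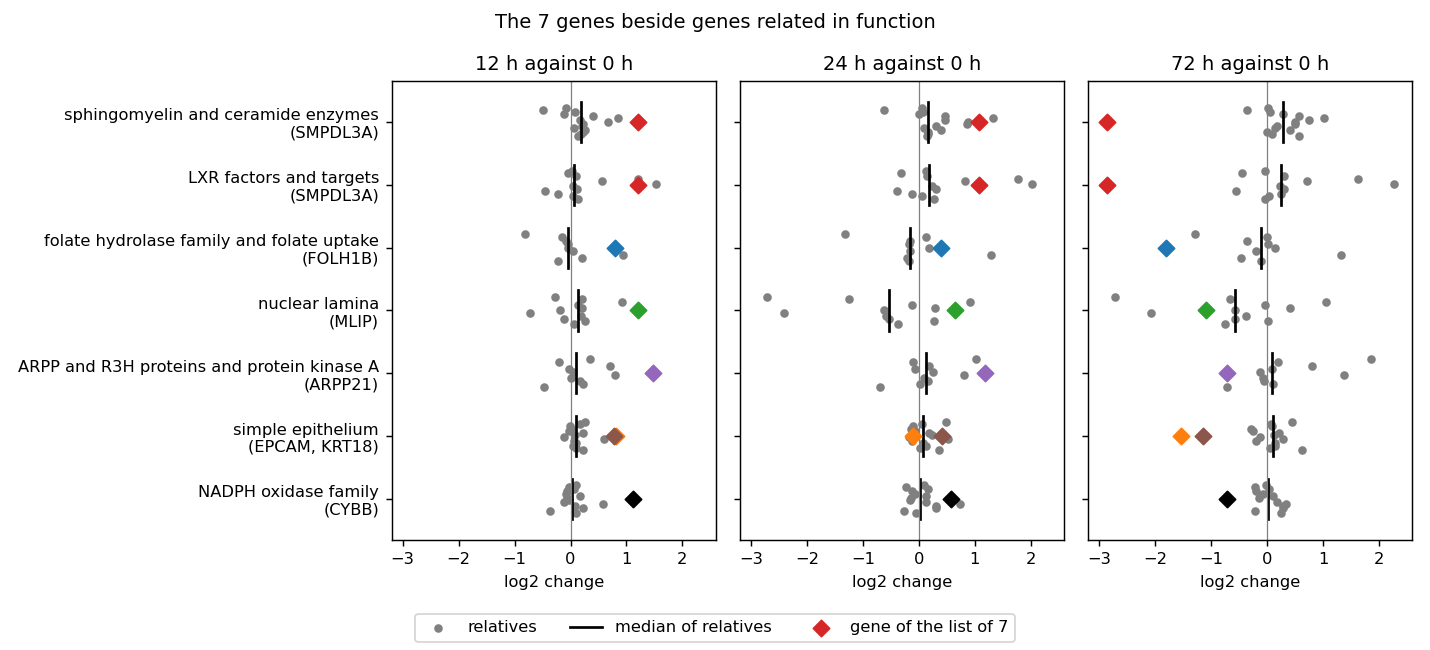
Log2 change against 0 h (x axis) at 12, 24 and 72 h for the genes of 7 lists related to the 7 genes (grey points, 1 gene each, by its brightest probe set; black bar, median) with the member itself as a diamond. At 72 h the diamonds of SMPDL3A, FOLH1B, EPCAM and KRT18 lie left of every related gene of their lists, and that of CYBB (-0.72) lies just left of NCF4 (-0.70). The 7 genes were chosen for a 72 h mean below 0 h and the related genes were not, so this placing follows in part from the choice.

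Markers of cell types that also express members of the 7 were followed as well. Of 9 macrophage markers, cells in which CYBB and SMPDL3A are known, 4 were above the table's median level, and their summed level was 52.7 to 53.0 at 0 h, 52.8 to 53.3 at 12 h, 53.5 to 54.2 at 24 h and 54.3 to 55.4 at 72 h. Their median changes against 0 h were -0.04, 0.03 and 0.19 at 12, 24 and 72 h. CD14 and CSF1R, which define that lineage, averaged 6.41 and 5.42, and changed by 0.17, 0.29 and 0.19 (CD14) and by -0.09, -0.02 and -0.10 (CSF1R). AIF1 was the one macrophage marker called, higher by 1.01 at 72 h (limma adjusted p = 1.43e-08). Among 5 neutrophil markers S100A8 rose by 0.76, 1.09 and 1.56 (adjusted p at most 5.04e-04) and CSF3R by 0.70 at 72 h (adjusted p = 2.69e-05). Their summed level was 25.4 to 25.8 at 0 h, 26.7 to 27.1 at 12 h, 27.1 to 28.0 at 24 h and 27.5 to 28.1 at 72 h.

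In the remaining lists, 0 of 5 neuron, 5 muscle and 6 fibroblast markers were called in any comparison with 0 h, and the summed level ranged from 24.5 to 25.4 for the neuron and from 23.5 to 24.8 for the muscle markers over all 12 arrays. The T cell marker CD3D fell by 1.11 at 72 h (limma adjusted p = 2.76e-05) while CD3E changed by 0.06, 0.04 and 0.07. The B cell marker CD79A rose by 0.64 at 72 h (adjusted p = 8.62e-04). KDR, an endothelial receptor, rose by 1.68 and 2.54 at 24 and 72 h (adjusted p at most 1.25e-09), whereas CDH5 changed by 0.07, 0.21 and 0.22. Of the 10 mast cell markers, 1, 6 and 4 were called higher at 12, 24 and 72 h and 0 lower. Their median changes were 0.48, 0.78 and 0.89. GATA2 rose by 1.18 and 1.76, FCER1A by 0.75 and 0.98 and CMA1 by 0.81 and 0.89 at 24 and 72 h (limma adjusted p at most 4.24e-06). MITF rose by 0.66, 0.99 and 0.96 at 12, 24 and 72 h (adjusted p at most 2.93e-06). On poly-A scaling all 19 called rises in the marker lists, the mast cell list included and counted over the 3 times, stayed above 0, while 15 of the 18 list medians above 0 turned below it. For the called rises this was again largely fixed by the 1.5-fold limit of a call. The part of other cells in the levels of the 7 genes was not tested.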

How the data were processed

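Total RNA of C2 cells was measured on 12 Affymetrix Canine Genome 2.0 arrays, 3 per time point, grouped by the time and agent in the labels. The authors processed the scans in Partek with its gcRMA workflow (background correction, quantile normalization, median polish), and the deposited values are log2 expression, 1 per probe set and array. Partek and RMA are the tools in the submitters' processing notes. Quantile normalization gives all arrays one distribution, so a change shared by most transcripts is not seen.

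Of 43035 probe sets 111 controls, among them 36 poly-A probe sets, were set aside and 42924 tested with limma 3.58.1 in R 4.3.3 (lmFit and eBayes, 1 coefficient per time point), with Benjamini-Hochberg adjustment over all of them. Calls followed the thresholds of the study's methods (0.001 and 1.5-fold) and were counted over the 29254 probe sets with 1 symbol; 439 had several and 13231 none. Symbols come from the platform table, 27680 of them updated by Entrez identifier to RefSeq's UU_Cfam_GSD_1.0. A gene was represented by its probe set with the highest mean. Genes named are the 7, called genes of the lists (up to 4 per list by size), and the 3 most like each of the 7; KRT8, CYBA, RAC2, SMPD1, SMPDL3B, ABCA1, ABCG1, LMNA, CD14, CSF1R, CD3E, CDH5 and CENPF were added after their values were seen. The 7 genes and all lists were chosen with earlier results of these data known. For the comparisons that chose the genes, no p-value is given for the 7. The counts of calls given for them come from the same fit and are a description. The steps were tested on simulated data. Alternatives covered the test, arrays fitted, thresholds, dim probe sets, scaling, probe set, a block for the replicate number, and leaving out single arrays. The arrays give no detection call, and their number limits the precision (median residual SD 0.112). Python 3.11.15 with numpy 2.4.6, pandas 2.3.3 and matplotlib 3.10.9 was used.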

Additional observations from a re-analysis of the deposited data

How the results depend on the processing

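All 7 genes kept the 12 h mean above and the 72 h mean below 0 h by their brightest probe set in every setting that gives a value. That order is how they were picked. Settings that change only the test or leave out dim probe sets cannot alter these means, so this is a description and no check of the choice. The named probe sets called at 24 h against 0 h, 4953 as reported, were 11868 at an adjusted p under 0.05 with no minimum fold, 2278 at 2-fold, 14676 on poly-A scaling and 4681 to 5056 with 1 array left out. The lower calls made up 58.8% as reported and 96.3% on poly-A scaling. Of the 22 probe sets of the 7 genes, 5 called at 24 h against 0 h (5 higher and 0 lower, but 0 higher and 4 lower on poly-A scaling) became 2 under the methods' analysis of variance with Storey q-values, 13 at the looser and 2 at the stricter threshold, and 2 to 6 with 1 array left out (3 without replicate 2 or 3 of 0 h, 2 without replicate 1 or 3 of 24 h). The 8 called at 24 h against the mean of 0, 12 and 72 h became 5, 16 and 2 under the same settings, 2 on poly-A scaling (beside 12.8% of named probe sets), and 5 to 8 with 1 array left out (5 without replicate 1 or 3 of 24 h). The causes were not tested.

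Among the brightest probe sets, directions turned on poly-A scaling for FOLH1B (-0.21), KRT18 (-0.19) and CYBB (-0.026) at 24 h against 0 h and for EPCAM (-0.20) at 24 h against the mean of the other times. Dimmer probe sets of FOLH1B, KRT18, CYBB, ARPP21 and MLIP also turned below 0 at 24 h against 0 h on this scale, such as ARPP21 Cfa.733.1.S1_at (-0.309). Other probe sets of a gene turned the direction for MLIP with Cfa.19660.1.S1_s_at (-0.017 at 12 h, -0.17 at 24 h, -0.079 against the mean of the other times), EPCAM with CfaAffx.4844.1.S1_at (-0.043 against that mean) and ARPP21 with Cfa.733.1.S1_at (0.068 at 72 h). Of the 627 values of single genes under an alternative, 545 counted as unchanged. For a tested value this means that direction and call were kept. The changes at 12 and 72 h against 0 h carry no test, and for them it means a move within the residual SD. Many values cannot move under a setting, such as one that changes only the test, so the 545 do not measure robustness. Of the others, 32 lost a call, 8 gained one and 33 untested values moved by more than the residual SD, with the direction kept.

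With the replicate number as a block, 4878 named probe sets, 5 of the 22 at 24 h against 0 h and 7 of the 22 against the mean of the other times were called. With the block, KRT18 (limma adjusted p = 8.32e-04) and CYBB (adjusted p = 9.74e-04) came under the p threshold at 24 h against 0 h. They still fell short of the fold. Same-numbered arrays of different time points correlated in their deviations at a median of -0.056 (18 pairs, 5 of them above 0.1). The pairs ranged from -0.329 to 0.411, too wide with so few arrays to show or exclude that the numbers pair the samples. The comparison with the mean of the other times could not be run on the arrays of 2 time points alone. Precision is limited by the array number, and 4 of the 22 probe sets are among the dimmest 40% of the table.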
